A study of Mus musculus with 8 samples.

Results

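Genes that keep up, transcribe and translate the mitochondrial genome were followed in inguinal white adipose tissue (ING WAT, the subcutaneous fat pad of the groin) of mice at postnatal day 21 (PN21) and postnatal day 98 (PN98). The set was chosen by symbol. It held aminoacyl-tRNA synthetases of the mitochondrion whose symbols are 1 capital letter followed by ars2, and 20 further factors chosen by name. Mitochondrial synthetases under other symbols were not looked for. All 37 genes were found among the 38361 genes of the table, and all 37 were among the 16090 genes with a mean of at least 1 FPKM (fragments per kilobase of transcript, scaled to the mapped fragments of the library) over the 8 mice.

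All mice were C57BL/6j, without a transgene or a deletion, and poly(A)+ RNA of their ING WAT was sequenced from 8 animals. PN21 was represented by 4 of these, named m1, m49, m138 and m145, and PN98 by the other 4, named m35, m106, m114 and m125. The study fed PN98 animals either AIN93M or a western style diet, and which diet the sequenced animals had is not given in the sources used here, so that age and diet cannot be told apart. *Ddx3y*, a gene of the Y chromosome, was listed between 18.1 and 25.9 FPKM in all 8 mice. Nothing names the litters, so the p-values measure the spread between these 8 samples.

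The mitochondrial genome codes for a small set of respiratory chain subunits and for the rRNAs and tRNAs that translate them. Everything else needed to copy, read and translate it is made from nuclear genes and imported: the DNA polymerase POLG, the packaging and activating factor TFAM, the RNA polymerase POLRMT, the synthetases that charge the tRNAs, and the factors that start, lengthen and end a protein on the mitochondrial ribosome. NRF1 and GABP are nuclear transcription factors known to act on the promoters of many of these genes. Adipose tissue with many brown-like adipocytes is rich in mitochondria.

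Binding letters of both regulators were looked for in the promoters, because *Nrf1* and the GABP subunit *Gabpa* belong to the set. Windows from 250 bases before to 50 bases after the annotated start (RefSeq, GRCm38.p6) were present for 33 of the 37 genes. *Hars2*, *Mtif3* and *Pars2* were among those with none. The core read by GABP and other ETS factors, CCGGAAG on either strand, stood in 14 of the 35 windows of the set (40.0%), against 8.86% of all 32851 windows. The NRF1 consensus, searched on both strands, stood in 4 of the 35 windows (11.4%), those of *Gfm2*, *Iars2*, *Mars2* and *Polrmt*, against 4.60% of all windows. *Mars2* and *Polrmt* held both motifs. The windows of all 27025 genes were not limited to genes expressed in this tissue. Every gene of the set had a mean of at least 1 FPKM, and expressed genes alone were not compared. A match is a description of the letters and not a measured binding site. The stretches below show the ETS core (capitals) upstream of the RefSeq start of both synthetases that passed the test of age and of the genes for the packaging factor and for the RNA and DNA polymerases, 5′ to 3′ along the strand of the gene.
Cars2 (chr8:11550772-11550809, minus strand): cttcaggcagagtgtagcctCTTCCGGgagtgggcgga
Sars2 (chr7:28741794-28741840, plus strand): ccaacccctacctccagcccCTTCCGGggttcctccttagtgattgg
Tfam (chr10:71238065-71238111, minus strand): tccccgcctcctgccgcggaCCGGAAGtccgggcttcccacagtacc
Polrmt (chr10:79746598-79746644, minus strand): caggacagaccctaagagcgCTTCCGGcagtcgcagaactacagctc
Polg (chr7:79466285-79466331, minus strand): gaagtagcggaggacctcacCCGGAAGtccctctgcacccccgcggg
In *Cars2*, *Sars2* and *Polrmt* the core lay on the other strand and reads CTTCCGG here. Its first base lay 18 bases before the start in *Cars2*, 38 in *Polg*, 43 in *Polrmt*, 47 in *Tfam* and 154 in *Sars2*, counted from the RefSeq start. In the GENCODE annotation used for the genes, *Tfam* and *Polg* begin further upstream and contain these stretches, and *Cars2* begins within its stretch.

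Summed cell type markers were set beside the genes. The sums of adipocyte, epithelial and proliferation markers did not overlap between the ages, and those of the other lists did. The 8 adipocyte markers, *Adipoq* and *Fabp4* among them, were all detected, and their summed level was 13876 to 25094 FPKM at PN21 and 36601 to 47321 at PN98. *Fabp4* made up most of that sum in every mouse. At PN98 7 of these markers were higher, and *Slc2a4* was lower (log2 fold change −0.30). Summed brown-like adipocyte markers (8 of 8 detected) reached 3040 to 6460 FPKM at PN21 and 373 to 4229 at PN98, with the lowest value in m35, where *Ucp1* was listed at 7.41 FPKM. Of these markers 6 were lower at PN98, and *Elovl3* (log2 fold change 1.81) and *Prdm16* (0.03) were higher. *Cidea* was listed at 405 to 631 FPKM at PN21 and at 55.2, 721, 187 and 1064 in m35, m106, m114 and m125. Skeletal muscle markers (11 of 12 found) lay at 67.8 to 569 FPKM at PN21 and 545 to 3468 at PN98. Lymphocyte markers (8 of 9 found) lay at 409 to 989 FPKM at PN21, at 899 in m35 and at 18.1 to 172 in the other PN98 mice. The 6 macrophage markers lay at 519 to 849 FPKM at PN21 and 236 to 933 at PN98, and the 6 proliferation markers at 44.7 to 75.6 and 3.84 to 17.96. The 6 epithelial markers lay at 3.14 to 30.3 FPKM at PN21 and 0.895 to 1.78 at PN98, with *Krt14* and *Krt5* at 0 in some mice. The part of these cells in the results was not tested, and in whole tissue fewer cells of a type and less RNA per cell cannot be told apart. Mouse m35 stood apart from the other PN98 mice, and 3586 genes had an adjusted p under 0.05 without it, against 843 with it. Of the 37 genes of the set, 7 passed without m35, 2 with all mice and 0 without m106. Of all 16090 genes tested, 3586, 843 and 171 passed in the same order.

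At PN98, 32 of the 37 genes had a lower mean log2 value than at PN21 and 5 a higher one. Of all genes tested, 67.0% were lower. *Cars2* and *Sars2*, the cysteinyl- and seryl-tRNA synthetases, fell with an adjusted p under 0.05 (limma on log2(FPKM + 1), Benjamini-Hochberg over 16090 genes). Of all genes tested, 5.24% passed that threshold, 2.91% in the lower and 2.33% in the higher direction, so that 2 of 37 was near the background. Without adjustment, 13 of the 37 had a p under 0.05, all lower at PN98, against 27.2% of all genes, 19.0% lower and 8.17% higher. The mice of PN98 lay entirely below those of PN21 for 12 of the 37 and entirely above them for none, against 9.99% and 6.04% of all genes.

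The median log2 fold change (PN98 minus PN21) was −0.32 over the 37 genes and −0.21 over all genes tested. That shift of all genes depended on the scaling. After median of ratios scaling the median of all genes was −0.02 and that of the set −0.09. Of the 37 genes 25 were lower, against 51.3% of all genes. *Cars2* and *Sars2* passed there, against 7.65% of all genes (2.87% in the lower and 4.79% in the higher direction). After scaling each mouse to its summed FPKM of nuclear genes the medians were 0.02 and −0.06. Of the 37 genes 23 were lower, against 48.9% of all genes. *Cars2* alone passed there, against 4.97% of all genes (1.59% lower and 3.37% higher). The count of genes whose ages did not overlap fell from 12 to 3 with median of ratios scaling and to 4 with scaling to nuclear genes, against 6.89% and 4.62% of all genes in that direction. *Cars2* and *Sars2* were in both of these counts.

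**Figure D1:**
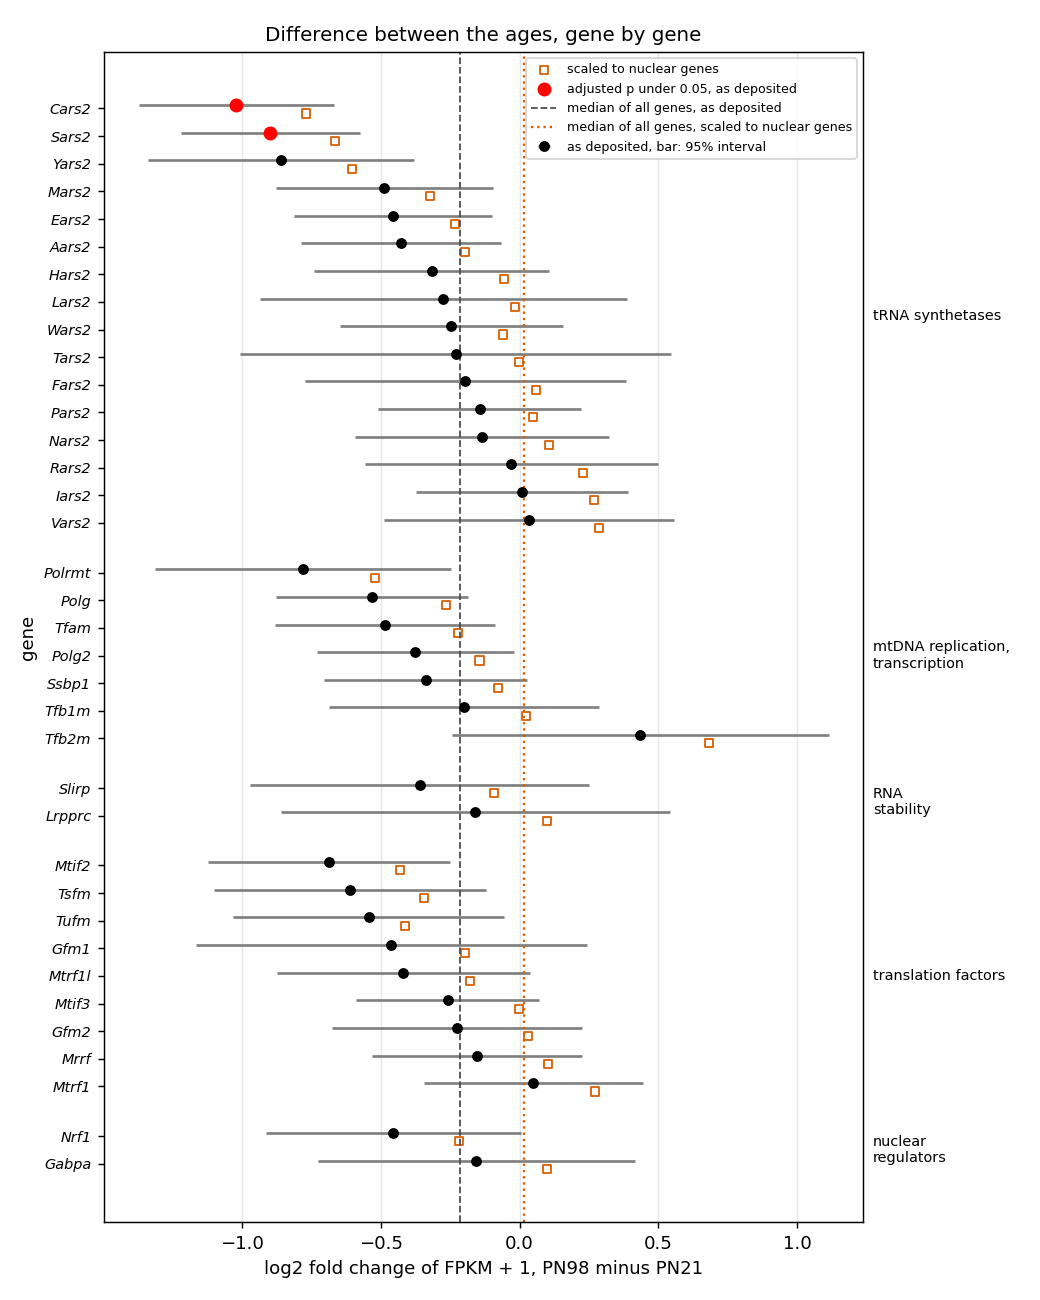
Log2 fold change of log2(FPKM + 1) for 36 of the 37 genes (rows, in groups by role), PN98 minus PN21; black or red points with 95% intervals are the values as deposited, open squares those scaled to nuclear genes, and vertical lines the medians of all genes. *Cars2* at −1.02 and *Sars2* at −0.90 are the red points, and every square lies to the right of its point, with the median of all genes moving from −0.21 to 0.02.

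The 17 mitochondrial tRNA synthetases each join an amino acid to its tRNA inside the organelle. The mean log2 value was lower at PN98 in 14, against 67.0% of all genes, and higher in 3. Their median log2 fold change was −0.25, and 2 passed the test. Their mean level over the 8 mice ran from 1.80 FPKM (*Mars2*) to 29.3 (*Hars2*), with a median of 14.7.

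*Cars2* (ENSMUSG00000056228, GRCm38 chromosome 8, 11513977 to 11550783, minus strand) was listed at 19.4, 23.0, 17.7 and 20.1 FPKM in m1, m49, m138 and m145 and at 10.2, 7.81, 10.49 and 9.08 in m35, m106, m114 and m125. Every PN98 mouse was below every PN21 mouse. The means were 20.1 ± 2.20 at PN21 and 9.40 ± 1.23 at PN98 (SD, n = 4 each), a log2 fold change of −1.02 (SE 0.154, limma adjusted p = 0.0125). It was −0.77 (adjusted p = 0.0351) when scaled to nuclear genes and −0.81 (adjusted p = 0.0268) with median of ratios scaling. The adjusted p was 0.0101 without m35 and 0.0501 without m106.

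*Sars2* (ENSMUSG00000070699, chromosome 7, 28741992 to 28753871, plus strand) was listed at 9.67, 9.33, 8.32 and 9.77 FPKM at PN21 and at 4.98, 3.74, 4.60 and 4.79 at PN98, in the same order of mice. Again the ages did not overlap. The means were 9.27 ± 0.664 and 4.52 ± 0.548 (SD, n = 4 each), a log2 fold change of −0.90 (SE 0.140, limma adjusted p = 0.0145). Scaling to nuclear genes gave −0.67 and an adjusted p of 0.0501, and median of ratios scaling gave −0.70 and 0.0372. Without m106 the adjusted p was 0.0536.

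Both values rest on a single transcript whose row also names an overlapping or adjoining gene on the opposite strand, and the setting for strand in the counting is not given in the sources used here. For *Cars2* that gene is *Carkd*, with 44.8 ± 1.80 FPKM at PN21 and 46.6 ± 6.03 at PN98 (SD, n = 4 each; log2 fold change 0.05, SE 0.142, adjusted p = 0.851). For *Sars2* it is *Mrps12*, the gene of a mitochondrial ribosomal protein, with 124 ± 28.0 and 89.8 ± 17.7 FPKM (log2 fold change −0.45, SE 0.220, adjusted p = 0.220). When rows naming several genes were left out, neither synthetase could be measured, and none of the 26 remaining genes of the set passed.

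*Yars2*, the tyrosyl-tRNA synthetase, was listed at 20.1, 31.5, 24.0 and 29.8 FPKM at PN21 and at 14.2, 15.7, 10.2 and 16.1 at PN98. The ages did not overlap, but the log2 fold change of −0.86 (SE 0.209) had an adjusted p of 0.0540 in limma. *Hars2*, the histidyl-tRNA synthetase and the highest of this group, was listed at 36.0, 35.8, 33.6 and 24.96 FPKM at PN21 and at 30.4, 28.5, 21.7 and 23.1 at PN98, with overlapping ages (log2 fold change −0.32, SE 0.184, adjusted p = 0.286). Of its level, 39.5% came from rows that also name its paralog *Hars*. *Iars2*, the isoleucyl-tRNA synthetase, was listed at 28.7, 29.7, 23.7 and 23.1 FPKM at PN21 and at 21.1, 29.4, 28.6 and 27.0 at PN98. Its difference of 0.01 on the log2 scale had a 95% interval from −0.37 to 0.39.

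A further 11 synthetases had log2 fold changes from −0.49 (*Mars2*, methionyl) to 0.03 (*Vars2*, valyl), with standard errors of 0.155 to 0.339 and adjusted p from 0.121 to 0.947. Their means lay between 2.27 and 27.5 FPKM at PN21 and between 1.33 and 21.8 at PN98. *Mars2*, *Ears2* (glutamyl) and *Aars2* (alanyl) were the members of this remainder whose ages did not overlap. *Lars2*, *Wars2*, *Tars2*, *Fars2*, *Pars2*, *Nars2* and *Rars2* had negative values within the spread of the mice, and *Vars2* had a positive one.

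**Figure D2:**
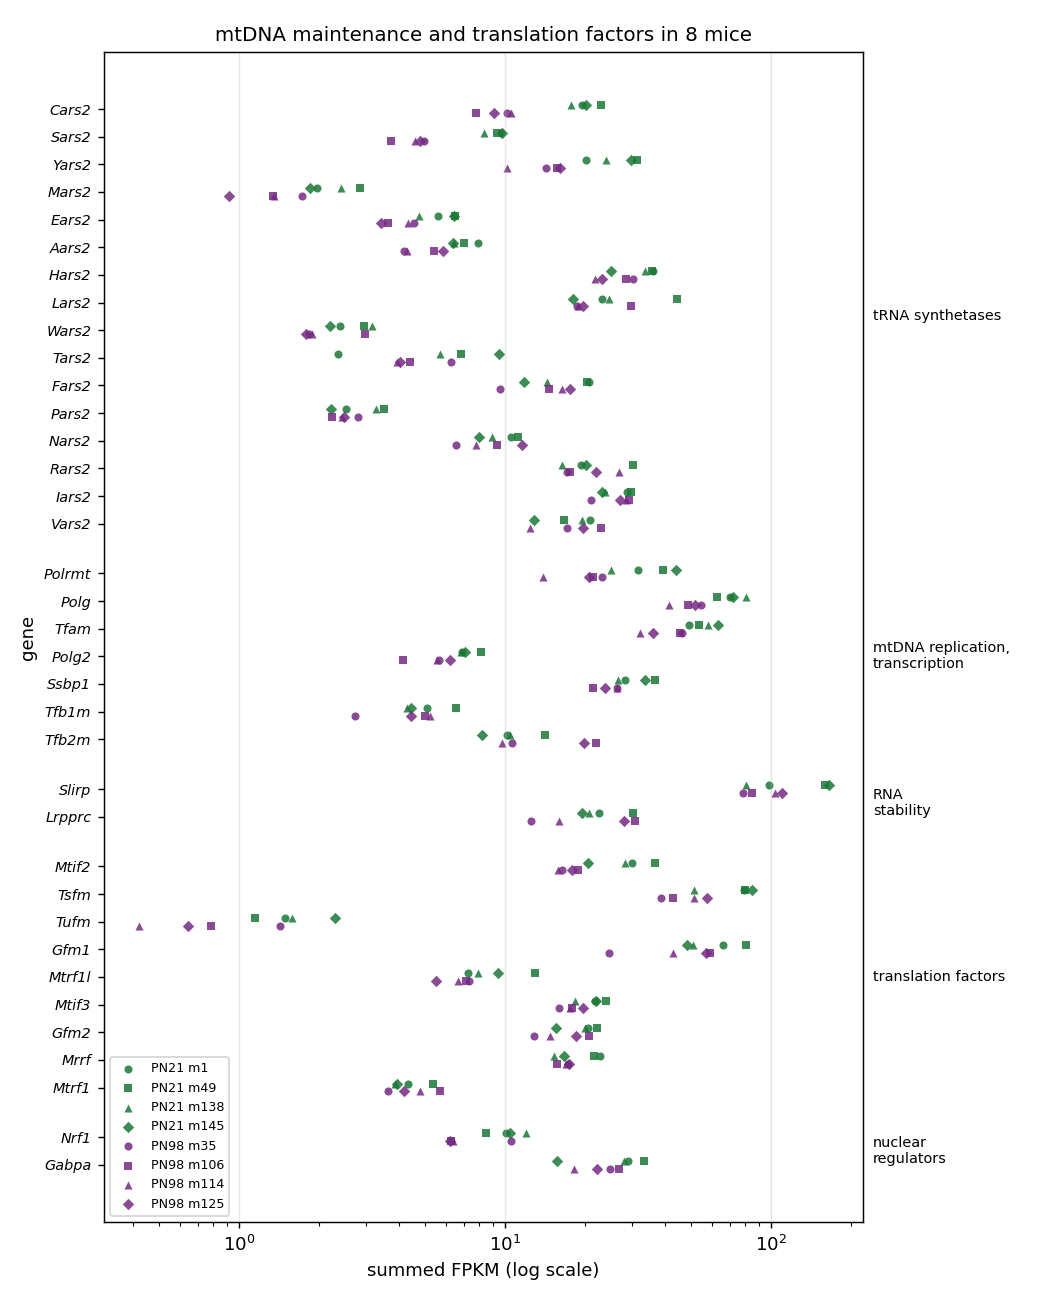
Summed FPKM (log scale) of 36 of the 37 genes in each of the 8 mice, with PN21 in green and PN98 in purple and 1 symbol per mouse. In *Cars2* and *Sars2* all purple points lie to the left of all green points, whereas in *Tfb2m* the highest points, 19.8 and 22.0 FPKM, belong to the PN98 mice m125 and m106.

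Of the 7 genes of mtDNA replication and transcription, 6 had a lower mean at PN98, against 67.0% of all genes, and 1 a higher one. The median log2 fold change was −0.38, and none passed the test. An unadjusted p under 0.05 was found in 4, all lower, against 19.0% of all genes in that direction. In 5 of these genes the mice of PN98 lay entirely below those of PN21, as did those of 9.99% of all genes. None of the 5 remained without overlap after median of ratios scaling, and *Polrmt* alone did after scaling to nuclear genes. *Polrmt*, the mitochondrial RNA polymerase, was listed at 31.6, 39.3, 25.0 and 43.9 FPKM at PN21 and at 23.2, 21.4, 13.9 and 20.7 at PN98. Its log2 fold change was −0.78 (SE 0.232, limma adjusted p = 0.0901), and 25.4% of its summed level came from protein-coding transcripts. Over these transcripts alone, an alternative added after seeing the data, the log2 fold change was −0.34 (adjusted p = 0.251). *Polg*, the catalytic subunit of the mtDNA polymerase and the highest of the group, was listed at 70.5, 62.8, 80.5 and 72.2 FPKM at PN21 and at 54.6, 48.9, 41.6 and 51.9 at PN98 (log2 fold change −0.53, SE 0.151, adjusted p = 0.0835). Rows that also name *Fanci* held 76.5% of its level.

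*Tfam*, which packages mtDNA and activates its transcription, was listed at 49.1, 53.7, 57.8 and 63.1 FPKM at PN21 and at 46.2, 45.7, 32.1 and 36.0 at PN98. The lowest PN21 mouse was thus above the highest PN98 mouse, while the log2 fold change of −0.48 (SE 0.173) had an adjusted p of 0.133. *Polg2*, the accessory subunit of the polymerase, and *Ssbp1*, the single-stranded DNA-binding protein, had log2 fold changes of −0.38 (adjusted p = 0.168) and −0.34 (adjusted p = 0.206), also without overlap of the ages. *Tfb1m*, an rRNA methyltransferase, had −0.20 (adjusted p = 0.547).

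*Tfb2m*, which opens the promoter for POLRMT, was the gene of the set with the most positive value, and it is named here after its values were seen. It was listed at 10.2, 14.2, 10.4 and 8.21 FPKM at PN21 and at 10.7, 22.0, 9.77 and 19.8 at PN98. Mice m106 and m125 were above all others, and m35 and m114 lay within the range of PN21. The log2 fold change of 0.43 had an SE of 0.296 and an adjusted p of 0.358, and it was positive in all the alternatives, from 0.25 to 0.69.

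LRPPRC and SLIRP form the complex that protects mitochondrial mRNAs. *Slirp*, the highest gene of the whole set, was listed at 98.7, 160, 80.6 and 165 FPKM at PN21 and at 78.8, 84.9, 104 and 110 at PN98 (log2 fold change −0.36, SE 0.266, adjusted p = 0.398). *Lrpprc* was listed at 22.6, 30.4, 20.7 and 19.4 FPKM at PN21 and at 12.5, 30.7, 16.0 and 28.1 at PN98 (log2 fold change −0.16, SE 0.305, adjusted p = 0.753). Its PN98 mice were split, with m35 and m114 below every PN21 mouse and m106 above every one.

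Of the 9 translation factors, 8 had a lower mean at PN98, against 67.0% of all genes, and 1 a higher one. The median log2 fold change was −0.42, and none passed the test. An unadjusted p under 0.05 was found in 3, all lower, against 19.0% of all genes in that direction. *Mtif2*, the initiation factor that brings the first tRNA to the ribosome, was listed at 29.96, 36.7, 28.3 and 20.6 FPKM at PN21 and at 16.4, 18.8, 15.8 and 17.9 at PN98. The ages did not overlap, and the log2 fold change was −0.69 (SE 0.190, limma adjusted p = 0.0786). *Tsfm*, the exchange factor that recharges the elongation factor TUFM, was listed at 79.2, 79.9, 51.3 and 85.04 FPKM at PN21 and at 38.5, 43.0, 51.6 and 57.7 at PN98. PN21 mouse m138 fell within the range of PN98 (log2 fold change −0.61, SE 0.214, adjusted p = 0.128).

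*Tufm*, the elongation factor that carries charged tRNAs to the ribosome, was listed at 1.48, 1.15, 1.59 and 2.29 FPKM at PN21 and at 1.43, 0.782, 0.418 and 0.640 at PN98 (log2 fold change −0.54, SE 0.213, adjusted p = 0.155). These were the lowest levels of the set. They rest on 1 transcript, and other *Tufm* transcripts were not analysed here. *Gfm1*, the translocation factor, had the highest mean of this group after *Tsfm* at PN21 and 24.6 FPKM in m35, its lowest value. The 6 factors not listed per mouse (*Gfm1*, *Gfm2*, *Mtif3*, *Mrrf*, *Mtrf1* and *Mtrf1l*, for translocation, ribosome recycling, initiation and release) had log2 fold changes from −0.46 to 0.05 and adjusted p from 0.208 to 0.870.

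The nuclear regulators gave no call. *Nrf1* was listed at 10.1, 8.50, 12.1 and 10.4 FPKM at PN21 and at 10.52, 6.28, 6.38 and 6.21 at PN98. The PN98 mice other than m35 lay below every PN21 mouse, and m35 lay within the range of PN21 (log2 fold change −0.45, SE 0.201, limma adjusted p = 0.188). Without m35, the mouse with the extreme *Nrf1* value at PN98, the log2 fold change was −0.62 with an adjusted p of 0.0291 in limma. With that mouse left out 3586 of all 16090 genes passed, against 843 with all mice. *Gabpa* was listed at 29.2, 33.2, 28.0 and 15.8 FPKM at PN21 and at 24.9, 26.9, 18.3 and 22.3 at PN98, and its difference of −0.16 had a 95% interval from −0.73 to 0.41. For *Gabpa* the value was −0.38 without m145, −0.04 without m49, and positive under both scalings (0.07 by median of ratios and 0.10 by nuclear genes).

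Across the mice, m49 was the highest of all 8 in 18 of the 37 genes and never the lowest. Mouse m35 was the lowest in 12 and never the highest, and m114 was the lowest in 8 and never the highest. The median deviation of the 37 genes from their own means was 0.37 log2 units in m49 and −0.23 in m35, while over all genes tested m49 deviated by 0.06 and m35 by 0.15. The coefficient of variation within an age had a median of 20.1% at PN21 and 18.01% at PN98 over the 37 genes, and it was larger at PN98 in 20 of them.

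Single transcripts were tested on log2(FPKM). Those with values above 0 in all mice and a mean above 2 FPKM at either age entered, 81 of them from 35 genes of the set. *Tufm* and *Wars2* had none. Lower means at PN98 were found for 66 of the 81 and higher ones for 15. Their median log2 fold change was −0.44 against −0.24 over all 23128 transcripts tested. The transcripts of *Cars2* (−1.10, adjusted p = 0.0376) and *Sars2* (−1.04, adjusted p = 0.0369) passed, against 1.32% of all transcripts tested (0.61% in the lower direction). None passed under either scaling, and none passed without any 1 of the mice other than m35. The 48 protein-coding transcripts had a median of −0.47 and the 33 others −0.20, whereas over all transcripts tested the medians were −0.18 and −0.34.

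The transcript with the lowest p and the summed value had opposite signs in *Lrpprc* and *Iars2*. In *Lrpprc* that transcript is annotated as a target of nonsense-mediated decay and was listed at 0.341, 0.141, 0.00118 and 0.000505 FPKM at PN21 and at 1.015, 6.00, 1.65 and 7.32 at PN98. All PN98 mice were higher (adjusted p = 0.134), and its share of the summed *Lrpprc* level was 9.12%. The protein-coding transcript held 82.0% and was listed at 22.1, 25.5, 20.3 and 18.1 FPKM at PN21 and at 9.76, 22.4, 11.7 and 18.04 at PN98 (log2 fold change −0.54, adjusted p = 0.310). In *Iars2* the transcript with the lowest p held 7.75% of the level and had a log2 fold change of −0.57 (adjusted p = 0.321), and the most abundant one, with 84.1%, had 0.17 (adjusted p = 0.667). In *Polg* the transcript with the lowest p held 3.74% of the level and had −1.15 (adjusted p = 0.0912), and the most abundant one, with 46.0%, had −0.65 (adjusted p = 0.199).

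**Figure D3:**
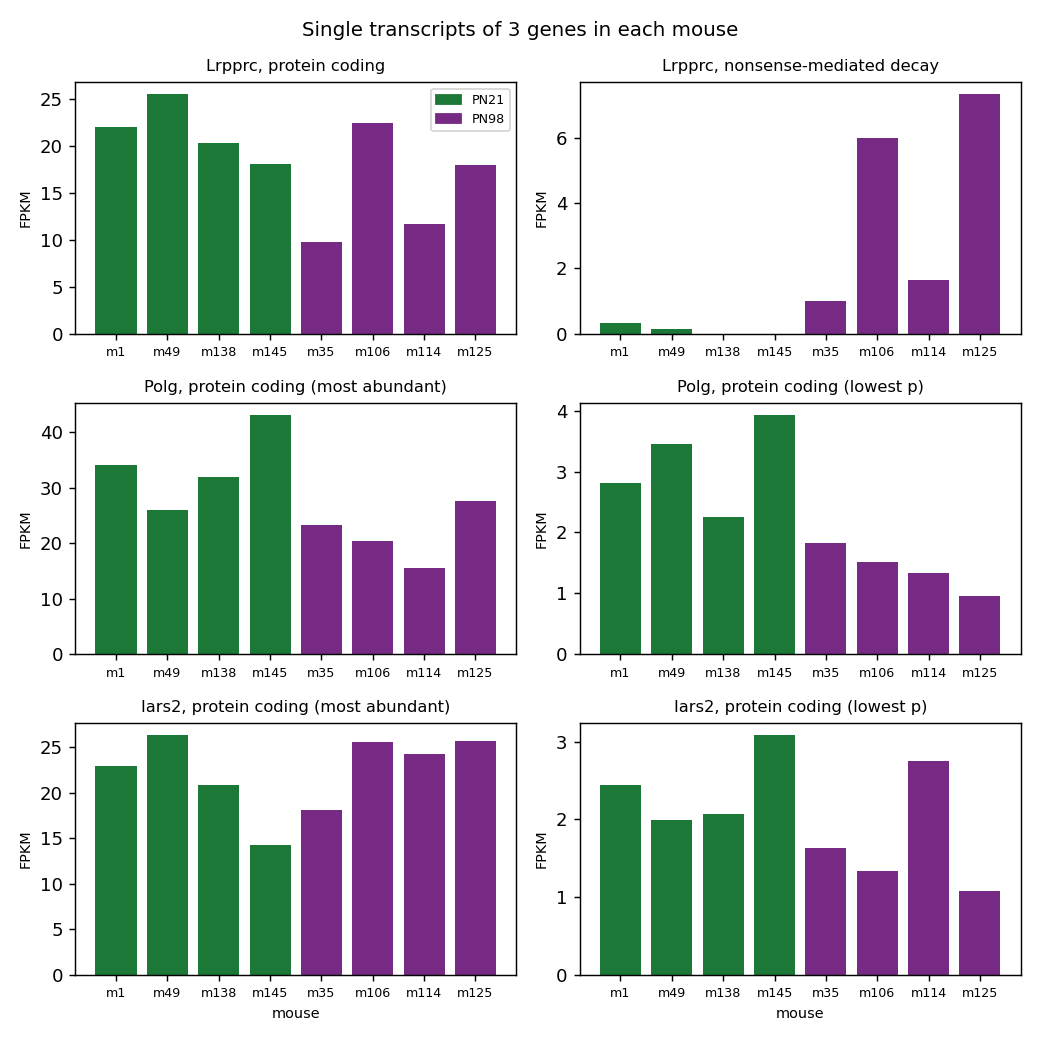
FPKM of 6 transcripts in each mouse (green PN21, purple PN98), from *Lrpprc*, *Polg* and *Iars2*; each panel has its own axis from 0. The *Lrpprc* transcript marked for nonsense-mediated decay reaches 6.00 and 7.32 FPKM in m106 and m125, and its protein-coding transcript is lowest in m35 at 9.76.

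The division of a gene's reads among its transcripts bears on these sums. The 37 genes had 198 transcripts in the table, from 1 to 20 each. In 13 genes under 50% of the summed level came from protein-coding transcripts, with *Vars2* at 9.58%, *Tsfm* at 15.1% and *Gfm1* at 16.9%. In 22 genes at least 1 transcript stood in a row that names a further gene.

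The 20 tRNA synthetases listed as cytosolic charge tRNAs for the ribosomes outside the mitochondrion. Whether any of them also serves the mitochondrion was not examined. All 20 were lower at PN98 (median log2 fold change −0.31), against 67.0% of all genes. After scaling to nuclear genes 12 of the 20 were lower (median −0.06), against 48.9% of all genes. *Farsa*, a subunit of the phenylalanyl enzyme, passed, with 25.2 ± 1.71 FPKM at PN21 and 13.5 ± 2.52 at PN98 (SD, n = 4 each; log2 fold change −0.87, limma adjusted p = 0.0254; 0.0850 when scaled to nuclear genes). *Vars* (−0.91, adjusted p = 0.194) and *Iars* (−0.70, adjusted p = 0.119) had the other large values. For 14 amino acids both enzymes could be set side by side, and the mitochondrial one had the lower fold change in 9. The medians over these pairs had the opposite order, −0.26 for the mitochondrial and −0.32 for the cytosolic enzymes. The cysteinyl pair differed as −1.02 for *Cars2* and −0.30 for *Cars*, and the seryl pair as −0.90 for *Sars2* and −0.04 for *Sars*. In the valyl and isoleucyl pairs the order was the opposite, with 0.03 for *Vars2* against −0.91 for *Vars* and 0.01 for *Iars2* against −0.70 for *Iars*. The differences within pairs were not tested.

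**Figure D4:**
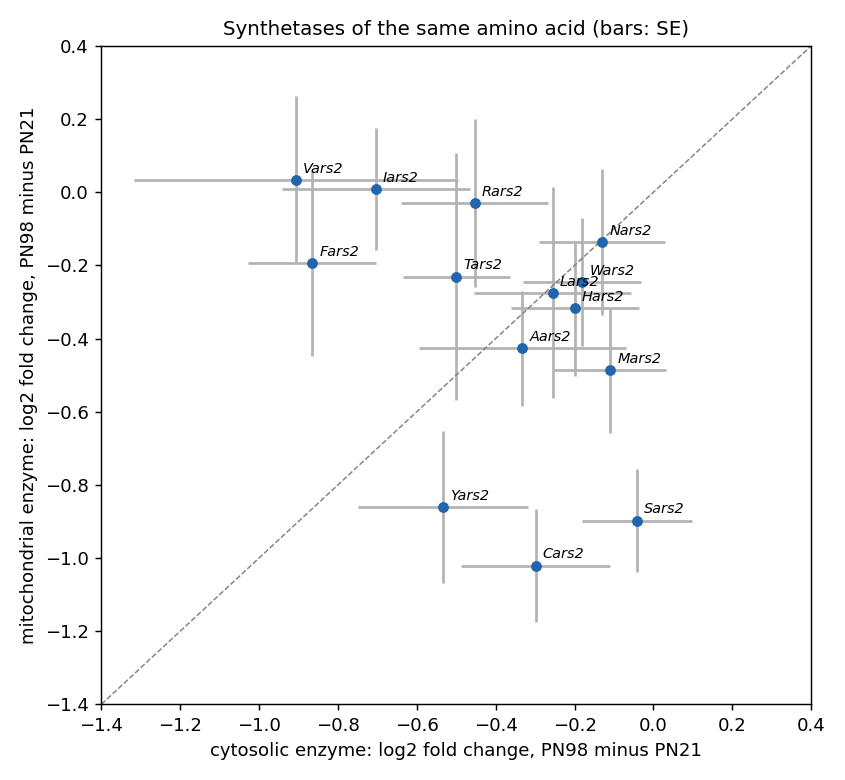
Log2 fold change (PN98 minus PN21) of the mitochondrial enzyme (vertical) against the cytosolic enzyme of the same amino acid (horizontal) for 14 pairs, with standard errors as bars and the line of equal change dashed. *Sars2* and *Cars2* lie far below the line, at −0.90 and −1.02, and *Vars2* and *Iars2* lie far above it, at 0.03 and 0.01.

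Of 49 further genes of mtDNA replication, RNA processing and translation, 45 were found and tested. The mean at PN98 was lower in 37, against 67.0% of all genes, and higher in 8. Their median log2 fold change was −0.31, and 26 were lower after scaling to nuclear genes (median −0.09), against 48.9% of all genes. *Qrsl1*, a subunit of the amidotransferase that makes mitochondrial glutaminyl-tRNA, was listed at 7.90 ± 0.527 FPKM at PN21 and 3.90 ± 0.264 at PN98 (SD, n = 4 each; log2 fold change −0.86, limma adjusted p = 0.0125). *Ptcd2*, an RNA-processing factor (−0.77, adjusted p = 0.0486), and *Trmu*, which modifies mitochondrial tRNAs (−0.67, adjusted p = 0.0448), also passed, and none of these passed when scaled to nuclear genes (adjusted p of 0.0595, 0.178 and 0.162). These 3 of 45 stand against 5.24% of all genes, a similar share. The largest values that did not pass belonged to *Fastkd2* (−0.997, adjusted p = 0.0604), *Gtpbp3* (−0.92, adjusted p = 0.0914) and *Tbrg4* (−0.89, adjusted p = 0.0624), of RNA processing and tRNA modification. *Rrm2b*, which supplies deoxynucleotides outside S phase, had 6.13 ± 0.815 FPKM at PN21 and 9.46 ± 1.82 at PN98. Its log2 fold change of 0.54 (adjusted p = 0.106) became 0.78 (adjusted p = 0.0484) when scaled to nuclear genes, the call of this list under that scaling. With median of ratios scaling *Qrsl1* passed as lower, and *Rrm2b* (adjusted p = 0.0231) and *Tk2*, a mitochondrial thymidine kinase (0.76, adjusted p = 0.0496), as higher.

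All 7 further regulators of the nuclear programme (*Ppargc1a*, *Ppargc1b*, *Pprc1*, *Esrra*, *Yy1*, *Gabpb1* and *Gabpb2*) were lower at PN98, against 67.0% of all genes. Their median log2 fold change was −0.63, and none passed in limma. An unadjusted p under 0.05 was found in 3, all lower, against 19.0% of all genes in that direction. Under either scaling 6 of the 7 were lower, with *Yy1* at 0.04 and 0.08, against 51.3% and 48.9% of all genes. Leaving out m35 gave 2 calls and leaving out m125 gave 1, where 3586 and 561 of all 16090 genes passed. *Ppargc1b*, a coactivator of mitochondrial genes, was listed at 8.58, 8.95, 10.1 and 7.94 FPKM at PN21 and at 1.52, 4.67, 2.37 and 6.68 at PN98 (log2 fold change −1.17, SE 0.336, adjusted p = 0.0853). Its lowest PN98 values were in m35 and m114, the mice with the lowest summed brown-like markers. *Pprc1* (−0.86, adjusted p = 0.140) and *Gabpb1*, which codes for a partner subunit of GABPA (−0.68, adjusted p = 0.162), followed.

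The transcripts that these factors make from mtDNA could not be set beside them in full, because 4 of the 13 protein-coding genes of the mitochondrial genome were listed at 0 in m106 and in m125. *mt-Nd1*, which was not, ranged from 5051 to 7515 FPKM at PN21 and was listed at 2695, 7943, 4042 and 9401 at PN98. Its highest values were thus in m106 and m125, the mice with genes listed at 0. The same held for *mt-Cytb* (17874 and 18487 FPKM, against 7924 to 11591 at PN21). Whether the values at 0 and these high values are linked was not tested.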

How the data were processed

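Per the labels, poly(A)+ RNA of ING WAT was made into directional libraries and sequenced paired-end. The authors used CASAVA 1.8.2, mapped with STAR 2.3.0 to mm10 and quantified transcripts with Cufflinks 2.1.1. The deposited values are FPKM and other summary numbers per transcript; read counts are not part of them, which leaves library depth unknown and allows no counting intervals. The authors' own fold changes and p-values were not used. Of 91969 transcripts, 40426 had a value without its decimal mark. Decimals were restored from the deposited standard deviation, average and score. A single reading was found for 40357, and 69 with several readings (none of the set) were left out. All 5001 restored transcripts that are also in the deposited comparison table had equal values there. Assignment of transcripts to genes and gene coordinates come from GENCODE vM21 (GRCm38, the build of mm10), and promoter windows from RefSeq.

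FPKM was summed per gene, and log2(FPKM + 1) of genes with a mean of at least 1 FPKM was compared as PN98 minus PN21 in limma 3.58.1 (R 4.3.3; lmFit, eBayes), with Benjamini-Hochberg adjustment over all genes and a threshold of 0.05. A fold change on this scale understates the change of low genes. Median of ratios scaling, scaling to nuclear genes, other filters and pseudocounts, eBayes with a trend, arrayWeights and leaving out each mouse were the alternatives. Values per mouse are given for genes with an adjusted p under 0.05 as deposited or scaled, the 3 largest absolute log2 fold changes and the highest mean of each role group, and genes whose lowest-p transcript and sum differ in sign. The members and lists were chosen with earlier results of these data known. The values of 1 gene of the set are counted in the totals and not reported here.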

Additional observations from a re-analysis of the deposited data

Results flagged for a closer look

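Within each age, the gap between the most extreme of 4 mice and its nearest neighbour was compared, by Dixon's 95% criterion, with the range of the group in 72 groups (36 genes at 2 ages). Chance alone gives such a gap in about 5% of groups, and 3 were found, all at PN98. *Lars2* was 29.9 FPKM in m106, against 18.7 to 19.7 in the other PN98 mice. *Wars2* was 2.97 FPKM in m106, against 1.79 to 1.88. *Nrf1* was 10.52 FPKM in m35, against 6.21 to 6.38.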

How the results depend on the processing

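No paired analysis was possible because the labels give no replicate numbers that the ages share. Of 37 genes, 24 kept their sign under all alternatives run, 23 lower and *Tfb2m* higher at PN98, and no sign changed in a gene that passed the test. As deposited 2 genes of the set passed; 2 passed with median of ratios scaling, 1 with scaling to nuclear genes, 13 with arrayWeights and 0 when rows naming several genes were left out. Leaving out 1 mouse gave 0 to 7, with 0 without m106 and 7 without m35 (*Cars2*, *Sars2*, *Yars2*, *Polrmt*, *Polg*, *Tufm* and *Nrf1*). At the transcript level 2 passed, 0 under both scalings and 0 to 4 without 1 mouse. Of the cytosolic synthetases 1 passed as deposited, 0 with scaling to nuclear genes, 2 with no filter and 0 to 4 without 1 mouse. Of the further mtDNA genes 3 passed, all lower, 1 with scaling to nuclear genes (*Rrm2b*, higher), 1 with a pseudocount of 0.1 (lower), 3 with median of ratios scaling (2 of them higher), 11 with arrayWeights, 0 with rows naming 1 gene and 0 to 6 without 1 mouse. Over all genes the count of 843 of 16090 became 4637 with arrayWeights, and 171 (without m106) to 3586 (without m35) with 1 mouse left out. It was 542 of 11049 with a mean of at least 5 FPKM and 485 of 9666 with rows naming 1 gene. After seeing the data, protein-coding transcripts only and leaving out m35 and m145 together were added. The first gave 3 of 35 genes of the set and 1027 of 11837 genes in all, the second 3 of 37 and 2556 of 16090. Of the 7 further regulators 0 passed, 3 with arrayWeights and 0 to 2 without 1 mouse. The cause was not tested. FPKM without counts limits all levels near 1, such as those of *Tufm* and *Mars2*.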
